A study of Mus musculus with 3 samples.

Results

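Foxf2-FLAG binding was described here at the genes of 3 families that act on the extracellular matrix, the Adamts, Mmp and Timp genes. A peak was given to one of these genes when the protein-coding transcription start site (TSS) nearest to its midpoint belonged to that gene. By this rule 127 of the 25704 peaks on chromosomes went to 26 of the 43 member genes (60.5%; 37.3% of all protein-coding genes had a peak), 113 to Adamts genes, 11 to Mmp genes and 3 to a Timp gene. All 43 symbols were found among the 21938 protein-coding genes of the annotation.

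The peaks came from anti-FLAG chromatin immunoprecipitation and sequencing (ChIP-seq) of mouse tongues at E12.5, in midgestation. The embryos were homozygous for a 3xFLAG tag placed on the endogenous Foxf2 protein by CRISPR/Cas9 editing (Foxf2FLAG/FLAG). There were 2 libraries precipitated with anti-FLAG and 1 input library without antibody. The labels mention 75 dissected tongues without saying whether each library took that number. All 3 libraries came from tagged tissue, so no FLAG precipitation from untagged tongue stood beside them. The tongue was taken whole and holds mesenchyme, muscle precursors, epithelium, vessels and nerve, and a peak in many cells cannot be told apart from a strong peak in few. The list holds no expression values, so neither the tissue nor the activity of a gene could be checked from it. It gives 1 position, 1 score and 1 focus ratio per peak and nothing per library. The spread between libraries and the sequencing depth are therefore unknown, no test between conditions was possible, and the comparisons below are descriptions over peaks or genes of a single list.

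Foxf2 is a forkhead transcription factor of the embryonic mesenchyme. Forkhead factors bind short sequences of the kind GTAAACA and close variants of it. The ADAMTS proteins are secreted metalloproteinases with thrombospondin repeats that cleave proteoglycans, procollagens and microfibril-associated proteins. The MMPs, the matrix metalloproteinases, cleave collagens, gelatin and many other matrix and surface proteins, and the TIMPs are their tissue inhibitors. Remodelling of the provisional matrix by such enzymes accompanies the growth of craniofacial tissues.

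The sequences below are the central 200 bases of peaks at these genes, on the plus strand of mm10 (read from RefSeq's GRCm38 genome), in lower case with every forkhead core in capitals. The core was searched on both strands as GTAAACA or its variant with a first A (ATAAACA), and as GTAAATA or its variant with a first A (ATAAATA). A core on the minus strand reads as its reverse complement, for example TGTTTAT. The first pair are the 2 highest-scored member peaks. They lay 130 kb upstream of Adamts18 and 180 kb downstream of the Adamts15 TSS.

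Adamts18, chr8:113978832-113979031: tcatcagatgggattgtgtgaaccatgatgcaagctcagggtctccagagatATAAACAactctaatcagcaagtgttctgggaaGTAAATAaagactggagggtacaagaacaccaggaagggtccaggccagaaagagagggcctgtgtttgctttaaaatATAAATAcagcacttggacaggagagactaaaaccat
Adamts15, chr9:30742423-30742622: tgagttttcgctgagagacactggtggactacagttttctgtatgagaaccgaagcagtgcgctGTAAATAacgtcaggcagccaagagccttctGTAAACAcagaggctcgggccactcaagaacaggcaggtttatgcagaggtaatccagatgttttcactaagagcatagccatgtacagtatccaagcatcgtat

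The next 4 are the highest-scored peaks of the Adamts gene with the most peaks and of Mmp16, Mmp9 and Timp3. In the Adamts16 peak a minus-strand and a plus-strand core overlapped.

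Adamts16, chr13:70779895-70780094: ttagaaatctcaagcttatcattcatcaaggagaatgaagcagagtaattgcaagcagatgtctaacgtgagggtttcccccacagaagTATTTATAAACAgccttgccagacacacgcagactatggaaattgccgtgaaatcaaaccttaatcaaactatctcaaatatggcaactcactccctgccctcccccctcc
Mmp16, chr4:17878946-17879145: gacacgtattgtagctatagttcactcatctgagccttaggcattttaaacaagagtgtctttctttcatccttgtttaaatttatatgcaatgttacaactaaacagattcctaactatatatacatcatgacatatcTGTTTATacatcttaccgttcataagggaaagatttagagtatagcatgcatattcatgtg
Mmp9, chr2:164931236-164931435: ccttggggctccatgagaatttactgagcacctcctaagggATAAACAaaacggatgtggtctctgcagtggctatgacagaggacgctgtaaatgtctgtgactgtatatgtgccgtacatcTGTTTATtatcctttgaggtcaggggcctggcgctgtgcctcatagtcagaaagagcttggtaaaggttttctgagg
Timp3, chr10:86381328-86381527: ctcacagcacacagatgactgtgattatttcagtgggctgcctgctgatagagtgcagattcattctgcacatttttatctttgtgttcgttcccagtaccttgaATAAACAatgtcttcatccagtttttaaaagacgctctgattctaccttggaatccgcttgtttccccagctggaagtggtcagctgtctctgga

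The following pair lay in promoters, of Adamts3 itself and of an antisense transcript that starts inside Adamts9.

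Adamts3, chr5:89883880-89884079: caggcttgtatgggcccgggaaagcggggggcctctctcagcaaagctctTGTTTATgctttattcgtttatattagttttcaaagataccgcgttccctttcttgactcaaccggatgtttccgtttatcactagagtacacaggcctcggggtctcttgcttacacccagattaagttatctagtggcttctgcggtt
Adamts9, chr6:92940201-92940400: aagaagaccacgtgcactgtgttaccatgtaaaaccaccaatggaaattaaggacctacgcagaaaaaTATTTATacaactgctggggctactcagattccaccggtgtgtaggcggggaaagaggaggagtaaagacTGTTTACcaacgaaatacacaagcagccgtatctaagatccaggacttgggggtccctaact

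Of the last 4, the Adamts20 window held 3 cores, the upstream Mmp2 window was nearly all repeat-derived sequence with 3 cores in a row, and the Adamts12 window held no core. From the peak at the Mmp2 start, which overlaps the first exon and also lacked a core, only the central 30 bases are shown. The Adamts20, Adamts12 and repeat-derived windows were chosen after their values were seen.

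Adamts20, chr15:94253225-94253424: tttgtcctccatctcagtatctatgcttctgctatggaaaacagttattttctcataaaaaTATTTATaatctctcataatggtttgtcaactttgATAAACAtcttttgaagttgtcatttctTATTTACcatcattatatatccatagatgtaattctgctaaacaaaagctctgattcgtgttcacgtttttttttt
Mmp2 upstream, chr8:92813390-92813589: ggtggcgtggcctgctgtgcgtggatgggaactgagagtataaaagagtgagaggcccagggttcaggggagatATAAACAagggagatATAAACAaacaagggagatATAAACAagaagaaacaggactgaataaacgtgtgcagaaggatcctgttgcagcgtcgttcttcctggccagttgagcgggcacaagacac
Adamts12, chr15:11165948-11166147: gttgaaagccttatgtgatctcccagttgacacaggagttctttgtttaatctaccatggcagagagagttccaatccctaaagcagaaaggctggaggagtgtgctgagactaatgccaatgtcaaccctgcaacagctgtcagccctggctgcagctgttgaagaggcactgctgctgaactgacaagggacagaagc
Mmp2 start, chr8:92827394-92827423: gaggctctgtgtgcatccaggagtttagat

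The 3 families differed in how many of their genes had a peak. Among the Adamts genes 17 of 19 were nearest to at least 1 peak (89.5%, exact 95% interval 66.9 to 98.7). The Mmp genes had one at 8 of 20 (40%, interval 19.1 to 63.9) and the Timp genes at 1 of 4 (25%, interval 0.631 to 80.6). Of all protein-coding genes, 37.3% had a peak. The Adamts share stood above that background, and the Mmp and Timp intervals included it. This background is not matched for the genomic room of each gene, which is described below. The intervals count genes only, and no test between families was made.

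Adamts genes also carried more peaks each. They had 5.95 peaks per gene with a median of 6, against 0.55 per Mmp gene, 0.75 per Timp gene and 1.17 per protein-coding gene. At least 10 peaks were found at 5 members, Adamts16 (16), Adamts20 (13), Adamts5 and Adamts17 (11 each) and Adamts9 (10), while 2.26% of all protein-coding genes reached 10. At least 5 peaks were found at 11 of 43 members (25.6%), all of them Adamts genes, against 7.06% of all protein-coding genes. At least 2 were found at 20 of 43 (46.5%), against 19.9%. As many peaks as Adamts16 were held by 170 genes in the genome, 0.775%. At the other end, Adamts4 and Adamts13 had none. The Mmp genes with peaks had 2 (Mmp2, Mmp9, Mmp16) or 1 (Mmp7, Mmp8, Mmp15, Mmp20, Mmp24), and Timp3 had 3.

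**Figure D1:**
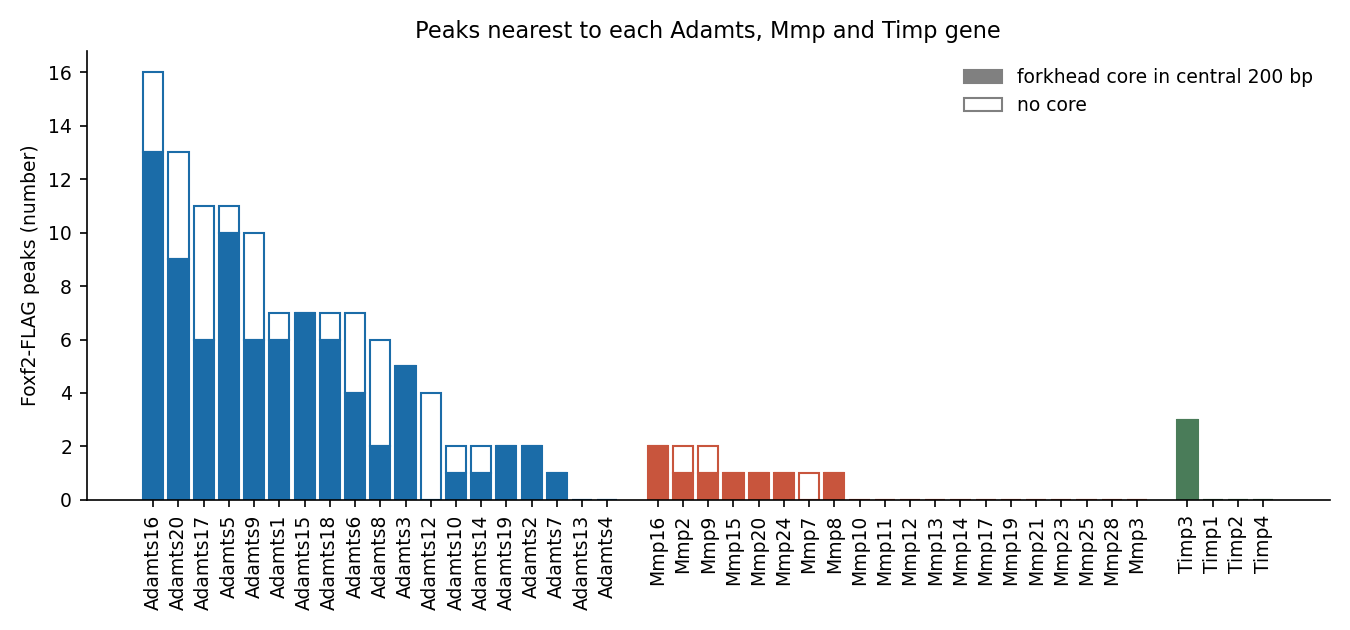
Number of peaks nearest to each of the 43 member genes (vertical axis), split into peaks with a forkhead core in the central 200 bp (filled) and without one (open), with Adamts genes in blue, Mmp genes in red and Timp3 in green. Peaks sit at 17 Adamts genes, 8 Mmp genes and 1 Timp gene, and Adamts16 has the most, 16.

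The families also differed in the genomic room of each gene. The territory of a gene, meaning all bases whose closest coding TSS is its own, had a median of 201 kb for Adamts genes, against 43.5 kb for Mmp genes, 51.6 kb for Timp genes and 47.1 kb for all protein-coding genes. In the whole list the share of genes with a peak was 8.16% in the lowest decile of territory length and 81.5% in the highest. Most Adamts genes fell in deciles 9 and 10, where it was 72.7% and 81.5%. The interval of the Adamts share, 66.9 to 98.7, included both values. All Mmp genes but Mmp16 fell in decile 7 or below, where it was 45.2% or less. Of the 19 Adamts genes, 14 had more peaks than the mean of their own territory decile, as did 7 of 20 Mmp genes and 1 of 4 Timp genes. Among all protein-coding genes 27.0% did, over all deciles together and not matched to the deciles of a family. The decile mean was 0.799 peaks in decile 7 and lower in those below it, so there any gene with a peak counts. All Mmp genes but Mmp16 fell in those deciles. In deciles 9 and 10, with most Adamts genes, the means were 2.61 and 5.56.

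Per 100 kb of territory, Adamts genes together held 2.32 peaks, Mmp genes 0.473 and Timp genes 0.808, against 1.03 for all autosomal protein-coding genes. The Mmp value turned on Mmp16, whose territory of 1479 kb held 2 peaks, or 0.135 per 100 kb. Without Mmp16, which was left out because of its value, the Mmp genes held 1.06 per 100 kb, close to the autosomal value. The densest members were Adamts8, with 6 peaks in 54.1 kb (11.1 per 100 kb), and Mmp9, with 2 peaks in 24.5 kb (8.15 per 100 kb). Adamts17 followed with 4.80 and Adamts1 with 3.98 per 100 kb, whereas Adamts19, Adamts2, Timp3 and Adamts7 stood near the autosomal value at 0.993, 1.01, 1.26 and 1.28.

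**Figure D2:**
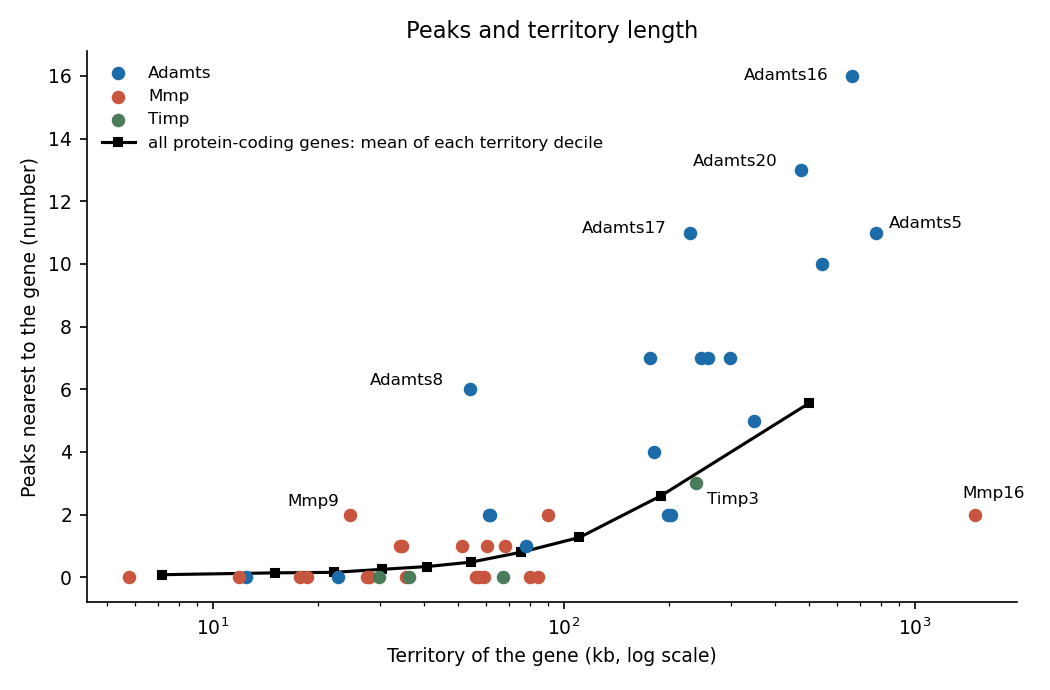
Peaks nearest to each member gene (vertical axis) against the length of its territory (kb, log scale), with the mean of each territory decile of all protein-coding genes as a black line. Adamts20, Adamts17 and Adamts8 lie above the line and Timp3 close to it. The line ends at 500 kb, the median territory of decile 10, where the mean is 5.56 peaks. Beyond its end lie Adamts16, with 16 peaks in 663 kb, and Mmp16, with 2 peaks in 1479 kb.

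The proteoglycanase clade, whose members cleave versican or aggrecan, held 54 of the 127 peaks, at 6 of its 7 genes. Its territories made up 2292 of the 4879 kb of all Adamts genes. Per 100 kb it held 2.36 peaks, close to the 2.32 of all Adamts genes, against 1.03 for all autosomal protein-coding genes. Adamts20, the gene mutated in belted mice, which have a white belt of coat, had 13 peaks with scores of 10.2 to 62.7. Of these, 9 lay beyond the 3' end of the gene, 151 to 237 kb downstream of the TSS. A run of 3 of them, scored 30.9, 37.0 and 43.4, fell within 7.30 kb. The highest, 62.7 (chromosome 15, 94253219 to 94253431), held the 3 cores printed above, and 9 of the 13 peaks held at least 1 core.

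Adamts9, the closest relative of Adamts20, had 10 peaks scored 10.5 to 25.4, all but 2 of them upstream of its TSS. The highest lay 224 kb upstream (chromosome 6, 93167483 to 93167695) and held 1 core. A peak 3.19 kb downstream of the TSS (score 22.4, chromosome 6, 92940195 to 92940407) lay in an intron of Adamts9 and 281 bp upstream of the start of 9530026P05Rik, an antisense noncoding transcript. A further 7 peaks, 142 to 327 kb upstream of Adamts9, lay inside that noncoding gene. They were given to Adamts9 because the rule counted protein-coding starts only. With the outermost annotated start of each gene in place of its basic transcripts, Adamts9 had 12 peaks.

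Adamts1 and Adamts5 lie next to each other on chromosome 16, on the same strand, and both encode aggrecan- and versican-cleaving enzymes. Together they had 18 peaks over 0.942 Mb, and 16 of these held a forkhead core, against 72.5% of all peaks. A difference in this share was not tested. Adamts5 had 11, of which 10 were upstream. A group of 5 of these lay 65.4 to 180 kb away and another 5 lay 600 to 723 kb away. The nearer group held its highest scores, 54.5 (chromosome 16, 86082186 to 86082398), 47.1 (85967093 to 85967305) and 42.7, while the remote group scored 11.4 to 22.8. Adamts1 had 7 peaks, none of them inside the gene, with scores of 10.5 to 29.1. The highest lay 46.3 kb past its TSS, on the downstream side (chromosome 16, 85756730 to 85756942).

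Adamts8 and Adamts15 are neighbours on chromosome 9, on opposite strands, and again both belong to the clade. They had 6 and 7 peaks, and none of the 13 lay inside either gene. All 7 Adamts15 peaks lay beyond its 3' end, 78.4 to 208 kb downstream of the TSS, and all 7 held a core. The highest of them scored 85.1, rank 282 in the whole list (chromosome 9, 30742417 to 30742629), and 52.9 (30770892 to 30771104), both in introns of the noncoding gene Gm31013. Adamts8 had 5 of its 6 peaks within 21.2 kb, downstream of the gene and inside the noncoding gene Gm29724. They scored 15.8, 12.3, 43.8, 17.7 and 53.3 along the chromosome, and 2 of the 6 Adamts8 peaks held a core. The highest, of 53.3, lay 43.4 kb downstream of the TSS (chromosome 9, 30985835 to 30986047). Adamts4, the remaining aggrecanase of the clade, had no peak in a territory of 12.45 kb, and the nearest peak of any gene was 77.7 kb from its TSS.

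The related pair Adamts16 and Adamts18 held 23 peaks, of which 19 had a core. Adamts18 had the highest-scored peak of all members, 98.9 and rank 171 in the list (chromosome 8, 113978826 to 113979038). It lay in intergenic sequence 130 kb upstream and held 3 cores. Beside it, within 12.0 kb, lay peaks of 23.6 and 28.1, and the other 4 Adamts18 peaks scored 13.2 to 31.5. Adamts16 had 8 peaks inside the gene and 8 upstream, the farthest 519 kb away. Its 3 highest, 43.6, 41.4 and 41.3, were all intronic, and the first and the third were 546 bp apart. The first lay 61.8 kb downstream of the TSS (chromosome 13, 70779889 to 70780101). The upstream peaks scored 11.1 to 31.6.

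**Figure D3:**
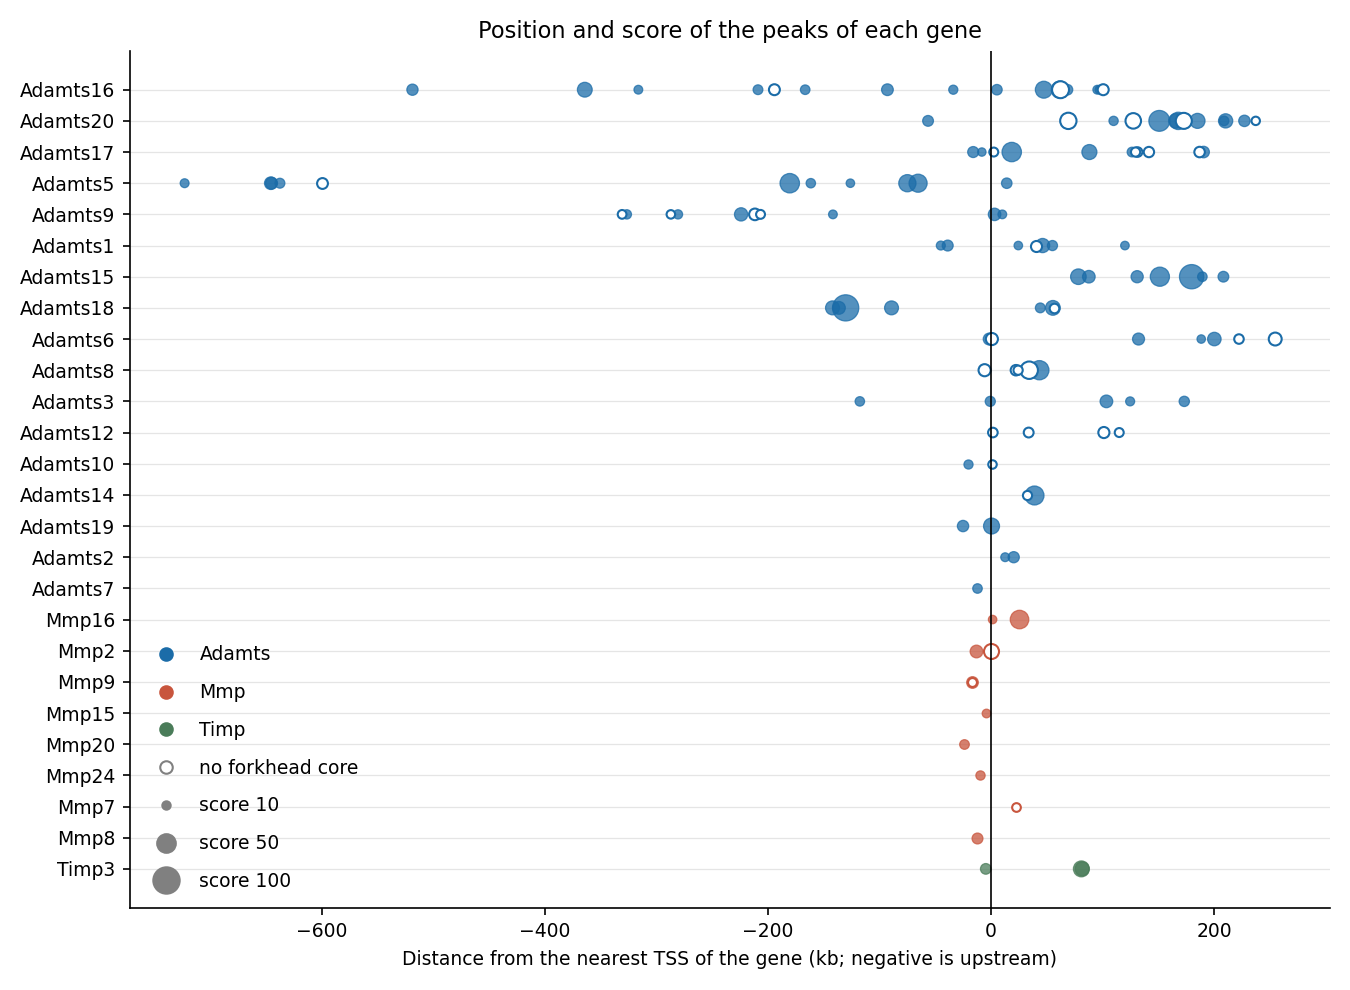
Distance of each of the 127 peaks from the nearest TSS of its gene (kb, negative is upstream), 1 row per gene, with the area of a point in proportion to the score and open points for peaks without a forkhead core. Adamts5, Adamts9 and Adamts16 have peaks far upstream, up to 723 kb for Adamts5, the Adamts20 and Adamts15 peaks lie mostly downstream, and the Mmp peaks stay within 25.6 kb.

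Adamts17 and Adamts6 belong to the ADAMTS proteases linked to fibrillin microfibrils. Adamts17 had 11 peaks, 9 of them in its introns, and the highest scored 54.3, 18.6 kb downstream of the TSS (chromosome 7, 66858312 to 66858524). Its relative Adamts19 had 2, including one of 36.8 only 487 bp downstream of the TSS, with a core. Adamts6 had 7 peaks scored 10.3 to 26.3, with one on either side of its TSS, 1.65 kb upstream (20.1) and 809 bp downstream (21). The highest lay 200.3 kb downstream of the TSS in an untranslated part of an exon (chromosome 13, 104494693 to 104494905) and held 1 core. Its relative Adamts10 had 2 low-scored peaks of 12.0 and 10.4.

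The procollagen N-proteinases, which trim the amino-terminal propeptides of fibrillar collagens, all had peaks. Adamts3 had 5 with scores of 11.7 to 23.1, and each held a core. It was the only member with a peak in its own promoter, a promoter being taken as the 1000 bp before and the 100 bp after a TSS. That peak lay 646 bp upstream and scored 14.8 (chromosome 5, 89883874 to 89884086). Adamts14 had 2 intronic peaks, of 52.0 (chromosome 10, 61234460 to 61234672, 38.7 kb downstream of the TSS) and 12.1, and Adamts2 had 2 of 18.0 and 11.2. Inside the Adamts2 gene lay 6 peaks, 4 of them nearest to the TSS of another gene.

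Adamts7 and Adamts12, which cleave cartilage oligomeric matrix protein (COMP), had 1 and 4 peaks. The 4 Adamts12 peaks were all intronic, scored 17.8, 14.0, 13.3 and 11.6, and none held a forkhead core, whereas 72.5% of all peaks did. Adamts12 was singled out after its values were seen. Adamts13, the von Willebrand factor protease made mainly in liver, had no peak in a territory of 22.8 kb. In its decile of territory length 14.1% of genes had a peak.

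Among the Mmp genes the gelatinases Mmp2 and Mmp9 had 2 peaks each. Mmp2, the gelatinase of mesenchymal cells, had a peak at its start, with the centre 118 bp downstream of the TSS in the 5' untranslated part of its first exon. By that position it fell just outside the promoter class. It scored 32.5 (chromosome 8, 92827303 to 92827515), had a GC content of 61% and held no core. Its other peak, 13.8 kb upstream, scored 23.3 and had the highest focus ratio of the members, 0.966. This ratio is the authors' measure of how concentrated the signal of a peak is. In that window 95% of the bases were soft-masked as repeats in the reference, and the 3 cores all followed the same letters, GGGAGAT. The 2 Mmp9 peaks, of 19.6 and 11.4, were 547 bp apart, 16.9 and 17.4 kb upstream. The higher of them held 2 cores and the other none.

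The membrane-anchored MMPs had peaks at 3 of 7 genes. Mmp16 had the highest Mmp score, 49.5, in an intron 25.6 kb into the gene (chromosome 4, 17878940 to 17879152), and a second peak of 10.3 at 1.45 kb. Mmp15 and Mmp24 had 1 each, of 10.8 at 4.61 kb and 12.4 at 10.1 kb upstream. Mmp14, which activates Mmp2 at the cell surface, had none. The nearest peak to its TSS lay 17.0 kb upstream, had the Slc7a7 TSS as its nearest, and scored 13.0. Mmp17, Mmp23 and Mmp25 also had none.

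On chromosome 9 a cluster of 9 annotated Mmp genes, 7 of them members, runs over 427 kb from Mmp13 to Mmp7. It held 2 peaks, 0.468 per 100 kb, and these were nearest to Mmp8 (17.1) and Mmp20 (13.4). Mmp7, a matrilysin of epithelia, had 1 peak of 10.9, 22.2 kb downstream and just outside the cluster. The stromelysins Mmp3 and Mmp10, the collagenase Mmp13 and the macrophage elastase Mmp12 had none, and their starts were 43.2 to 185 kb from the nearest peak. Of the dispersed secreted MMPs, Mmp11, Mmp19, Mmp21 and Mmp28 had none.

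Timp3, the matrix-bound inhibitor that also acts on ADAMTS enzymes, was the 1 Timp gene with peaks. It lies inside the synapsin gene Syn3, and all 3 of its peaks fell within Syn3. A pair 670 bp apart scored 36.6 and 28.5, 81.1 and 81.7 kb downstream of the Timp3 TSS (chromosome 10, 86381322 to 86382204), beyond its 3' end. The third scored 16.4, 4.66 kb upstream, and all 3 held a core. Timp2 had no peak by the nearest-TSS rule, although 1 peak of 15.5 with 2 cores lay inside the gene (chromosome 11, 118312304 to 118312516), nearer to the TSS of Cep295nl. Timp4 and Timp1 had none, and Timp1 lies on the X chromosome, 253 kb from the nearest peak.

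Scores of member peaks ran from 10.1 to 98.9, against 10.1 to 243.9 in the whole list. Their median was 17.1 (quartiles 12.4 and 28.0, n = 127), against 16.2 for all peaks (quartiles 12.3 and 24.5, n = 25704). By family the medians were 17.2 for Adamts (n = 113), 13.4 for Mmp (n = 11) and 28.5 for Timp3 (n = 3). Of the Timp3 peaks, 2 lay 670 bp apart. Of the member peaks 16, or 12.6% (exact interval 7.38 to 19.7), were in the top decile of the list by score, against 10.1% of all peaks, and the highest had rank 171. The score is the authors' own value and ranks peaks within this list.

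**Figure D4:**
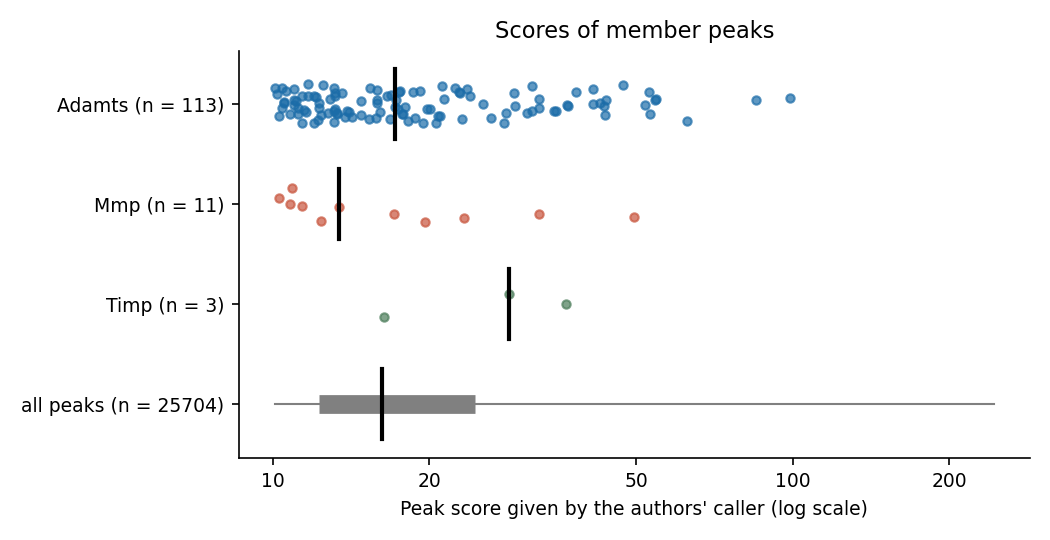
Score of each member peak (log scale), 1 row per family, with the family median as a black bar, and for all 25704 peaks the median (bar), quartiles (thick line) and range (thin line). Adamts peaks reach 98.9, Mmp peaks 49.5 and Timp3 peaks 36.6, and all 3 families overlap the quartiles of the list.

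Distance from the TSS differed between the families. Its median was 110 kb for Adamts peaks and 81.1 kb for Timp3 peaks, both above the 51.3 kb of all peaks, and 13.8 kb for Mmp peaks, below it. The Timp3 value rests on 3 peaks, 2 of them 670 bp apart. By the nearest-TSS rule the territory of a gene bounds these distances, and its median was 201 kb for Adamts and 43.5 kb for Mmp genes. A difference beyond that bound was not tested. Over the 127 member peaks, 113 of them Adamts peaks, the median was 89.2 kb, and 47.2% (exact interval 38.3 to 56.3) lay beyond 100 kb, against 33.8% of all peaks. Promoters held 2 member peaks, 1.57% (interval 0.191 to 5.57), against 8.52% of all peaks. Within 1 kb of a member TSS there were 5 peaks (3.94%, against 9.27% of all peaks), at Mmp2, Adamts19, Adamts10, Adamts3 and Adamts6. Of these 5, 3 held no core, and the core share of all peaks this close to a TSS was not computed. Counting genes with a peak within 10 kb of the TSS, 13 of 43 members had one (30.2%), against 19.4% of all protein-coding genes. Counting peaks went the other way, with 15 of 127 member peaks within 10 kb (11.8%, interval 6.76 to 18.7), against 20.9% of all peaks. No test of these differences was made.

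By class, introns of any gene held 48.0% of the member peaks, against 46.1% of all peaks, and 48.8% against 41.8% were intergenic. Peaks inside the gene they were nearest to made up 37.0%, against 38.8%. Another peak lay within 5 kb of 24.4% of the member peaks and of 22.6% of all peaks. The median gap to the next peak was 11.3 kb for member peaks, against 17.1 kb for all peaks. The median GC content was 43.5% in both sets and the median focus ratio 0.781, against 0.783.

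The share of peaks with a forkhead core was close to that of the list. A core in the central 200 bp was found in 92 of 127 member peaks (72.4%, exact interval 63.8 to 80.0), against 72.5% of all peaks. Windows 2000 bp to either side of the member peaks held one in 17.7%, and those of all peaks in 18.3%. The Adamts peaks had it in 71.7%, the Mmp peaks in 8 of 11 and the Timp3 peaks in 3 of 3. At least 2 cores were present in 19.7% of the member peaks, against 21.3% of all peaks. Of the 125 cores in member peaks, 55.2% lay within 20 bp of the peak centre, against 57.1% in all peaks. Member peaks with a core had a median score of 17.9, against 15.4 without one, and the whole list gave 17.1 and 14.4.

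The spelling of the core varied. GTAAACA, the strict form, occurred in 22.0% of the member peaks (interval 15.2 to 30.3), against 27.4% of all peaks, and made up 22.4% of the member cores, against 29.4% of all cores. ATAAACA was the most frequent spelling in both, with 46.4% and 44.6%. By gene, cores were present in all 7 Adamts15, all 5 Adamts3 and 10 of 11 Adamts5 peaks, in 6 of 11 Adamts17 peaks and in 2 of 6 Adamts8 peaks, against 72.5% of all peaks. These genes were picked after their values were seen, each has few peaks, and differences between genes were not tested.

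Of the sequences of other factor families, searched on both strands in the same windows, the E-box CATCTG, of a kind bound by basic helix-loop-helix factors, differed most from the list. It was in 48 of 127 member peaks, 37.8% (interval 29.3 to 46.8), against 28.0% of all peaks, and the flanks held it in 18.1% and 14.9%. It was the 1 sequence of 8 searched beside the forkhead forms whose interval left out the share of all peaks. The E-box CAGCTG was in 20.5%, against 18.7%, the TEAD sequence GGAATG in 17.3%, against 15.1%, and the SMAD sequence CAGACA in 26.0%, against 21.6%. ETS (GGAAGT) had 16.5%, against 12.6%, SOX (ACAATG or AACAAT) 16.5%, against 22.5%, RUNX (TGTGGT) 11.8%, against 13.8%, and AP-1 (TGACTCA or TGAGTCA) 2.36%, against 3.15%. A match is a sequence in a window and does not show that a factor was bound.

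**Figure D5:**
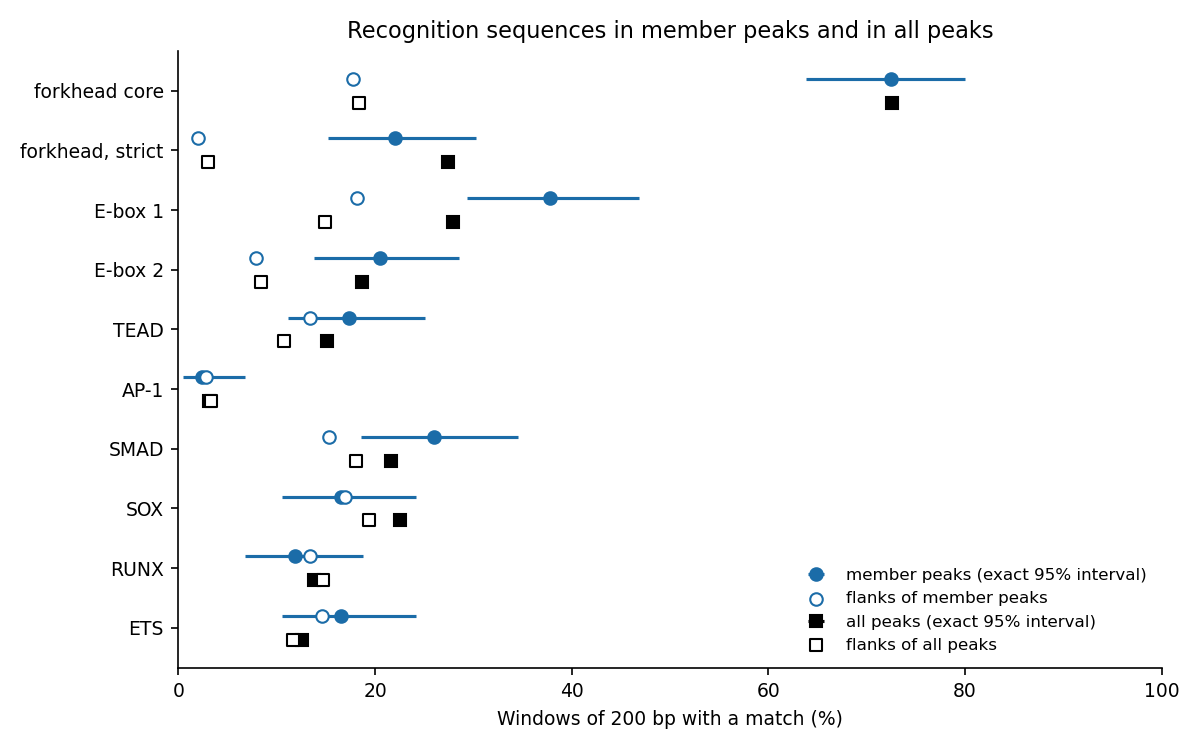
Share of 200 bp windows with a match (%), for member peaks (blue circles, n = 127, exact 95% interval) and all peaks (black squares, n = 25704), with their flanks as open symbols. E-box 1 is CATCTG and E-box 2 is CAGCTG; the forkhead core is at 72.4% and 72.5%, and E-box 1 at 37.8% and 28.0%.

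Other genes of matrix proteolysis were counted in the same way. The list held 35 genes, of which 34 were matched as protein-coding, and 16 of these (47.1%) had a peak, 66 in all, against 37.3% of all protein-coding genes. This background is not matched for territory. The ADAMTS-like genes, which encode matrix proteins without protease activity, had 30 of them at 4 of 6 genes. Adamtsl1 alone had 19 in a territory of 676 kb, the highest at 101.4, and Adamtsl3 had 7 in 238 kb. ADAM proteases had 3 peaks at 2 of 8 genes, 2 at Adam12 and 1 at Adam10. The substrate gene Vcan, encoding versican, had 8 peaks, 5 with a core and the highest at 38.6, while the lecticans Acan, Bcan and Ncan had none. The territory of Vcan was 275 kb, and those of Acan, Bcan and Ncan were 108, 28.2 and 23.9 kb. Pcsk5, a proprotein convertase, had 9 in 619 kb, and Tll1, a procollagen C-proteinase, had 6 in 370 kb. Reck, a membrane-anchored MMP inhibitor, had none.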

How the data were processed

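Per the labels' protocols and the series' design text, anti-FLAG ChIP and input libraries were made with the ThruPLEX kit. Per the submitters' processing notes, reads were aligned to mm10 with Bowtie2 2.4.1 and handled with SAMtools 1.7.1, and peaks were called with HOMER with the input as control. Parameters of the caller, its version and any pooling of libraries were not given in the sources used here. Deposited by the authors was 1 list of 25707 peaks, each 212 bp wide (end minus start). It has a peak score (scale not stated, deposited values 10.1 to 243.9) and a focus ratio, read as a fraction since the deposited values lie between 0 and 1. The list holds no value per library.

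Of these peaks, 3 lay on a contig without a chromosome and were not used. Coordinates were used as deposited, with the sequence and soft-masked repeats of the same build (RefSeq GRCm38) and the protein-coding transcripts of GENCODE M21 basic. Classes were taken at the peak centre, promoter first, then exon, intron and intergenic. Motifs were searched on both strands of the central 200 bp and of windows 2000 bp to either side. Shares carry exact Clopper-Pearson 95% intervals, which cover counting only. No replicate comparison could be made, and no significance test was run.

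The member genes, gene groups, motifs and gene lists were chosen with earlier results of these data known. Every member is named with its number of peaks. Peaks given in detail were the 10 highest-scored, those in promoters, and the highest of the genes with the most peaks and of Timp3. The rule asked for 8 such genes, and since 4 tied at 7 peaks, all 9 genes with at least 7 were taken. Further peaks named were chosen after their values were seen. The TSS and motif searches were tested on simulated data. Computations used pandas 2.3.3, numpy 2.4.6, pysam 0.24.0, scipy 1.17.1 and matplotlib 3.10.9 under Python 3.11.15.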

Additional observations from a re-analysis of the deposited data

How the results depend on the processing

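No paired analysis was possible because the list has no column of a single library, and no library could be left out. Of 68 values computed under alternative settings, 43 stayed close to the reported ones, and all the others are given here. Taking the 5' end of the whole gene, or counting peaks closer than 1 kb once, moved none of the counts by over 1.5 times. Peaks inside the gene numbered 63 (58 Adamts, 4 Mmp, 1 Timp) at 16 members, 2 of them Mmp genes. Within 10 kb of the TSS there were 15 peaks (11 Adamts, 3 Mmp, 1 Timp) at 13 members, 9 Adamts and 3 Mmp. Within 50 kb there were 48 (36 Adamts, 1 Timp) and within 100 kb 67 (53 Adamts); the Mmp count stayed at 11 in both. These limits remove peaks by construction. Keeping peaks at or above the median score of the list left 68 peaks (53.5%, against 50.1% of all peaks), 60 at Adamts genes and 5 at 4 Mmp genes. With that cut 20 of the 43 members had a peak, against 24.6% of all protein-coding genes. With GTAAACA in place of the core, 22.0% of member peaks had a match. With promoters of 2000 bp to either side, 7.09% of member peaks were in one, against 16.5% of all peaks. Without Mmp16 the Mmp density was 1.06 per 100 kb, from the large territory of that gene. The depth of the libraries is unknown, so a gene without a peak is one without a peak in this list, not one shown to be unbound.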

Other observations

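Several peaks inside member genes went to other genes by the nearest-TSS rule. Mmp2 had a further peak of 11.6 with 2 cores near its 3' end (chromosome 8, 92851756 to 92851968). Adamts17 had 12 peaks inside the gene against 9 of its 11 nearest peaks, and Adamts18 had 4 inside it against 3 of its 7 nearest peaks. The Adamts5 peak 638 kb upstream (score 14.2, chromosome 16, 86539423 to 86539635) held 4 cores, the most of any member peak, and 91% of its window was soft-masked as repeats. With the upstream Mmp2 peak it was 1 of 2 member peaks with over 50% of the window masked (1.57%), against 3.18% of all peaks.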
